A study of Mus musculus with 6 samples.

Results

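Cell cycle and DNA replication genes were followed through the day in mouse pancreatic islets, the clusters of hormone-secreting cells that include the insulin-making beta cells. The set held 34 genes, given by symbol and found on the array through the RefSeq transcript that each probe carried. These genes had 45 probes, and 32 of the 34 were measured, out of 24127 genes tested on the arrays in all. The unmeasured genes were Ccne2, a cyclin that drives entry into S phase, and Aurkb, a kinase of the chromosomal passenger complex, whose probes were not well above background on any array. Each of the 32 measured genes was well above background on all 6 arrays.

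Islets came from male C57BL6 mice, 8 weeks old and fed chow, in a cycle of 12 h light and 12 h dark. The 6 groups were the zeitgeber times (ZT) ZT0 (lights on), ZT4, ZT8, ZT12 (lights off), ZT16 and ZT20, and the labels name no further treatment or genetic change. Islets were released with collagenase, and RNA of 3 to 5 mice was pooled into 1 array per time point. No time point therefore had a replicate, and the spread between mice cannot be seen. The share of spots well above background ran from 66.1% on ZT4 to 84.4% on ZT0, and the number of arrays limits the precision. The arrays fell into 3 scans: ZT8, ZT12, ZT16 and ZT20 shared 1 scan, and ZT4 and ZT0 were scanned separately. A level is the log2 processed signal of a probe relative to the 75th percentile of its array, so a level of 0 is the signal that 75% of probes do not exceed. Ins1, Ins2, Gcg and Sst, the hormone genes that define islets, were well above background on all arrays.

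The cell cycle runs through a synthesis phase (S phase), in which DNA is copied, and mitosis, in which the copies are parted. D cyclins with CDK4 or CDK6 phosphorylate the retinoblastoma protein and free the E2F factors, which switch on the genes of replication. Later genes are held off in resting cells by the DREAM complex and are switched on by MYBL2 and FOXM1, through promoter elements named the CCAAT box and the cell cycle homology region (CHR). WEE1, a kinase, holds CDK1 inactive until mitosis, and its gene is a known target of the circadian clock in liver. Most adult beta cells rest and divide rarely, whereas activated lymphocytes and germinal centre B cells divide fast. In the grouping used here 12 members were S-phase genes (11 measured), 18 were mitotic genes (17 measured), 3 were D cyclins and Wee1 stood alone.

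Promoters are shown first, because S-phase and mitotic genes are known for different elements, and these were counted in the members. RefSeq promoter sequences of GRCm38.p6, from 250 bases before to 50 bases after each start, were found for 26 members, in 28 windows. Both strands were searched for the CHR letters TTTGAA or the variant TTCGAA, for the CCAAT box, for the E2F letters TTGGCGC or the variants TTCGCGC or else TTCCCGC, and for the E box CACGTG. Matches of CCAAT and of the E2F letters can overlap on opposite strands, as can E2F matches with each other. A CHR match lay in 12 of 15 mitotic windows (80%) and in 2 of 11 S-phase windows (18.2%), against 19.2% of all 32851 windows of this length. An E2F match lay in 6 of 11 S-phase windows (54.5%) and 3 of 15 mitotic windows (20%), against 8.07% of all windows. CCAAT was frequent in both groups, in 14 of 15 mitotic (93.3%) and 9 of 11 S-phase windows (81.8%), against 37.4% of all. The E box lay in 1 S-phase window, that of Tyms, and in 0 mitotic windows, against 7.15% of all. A match describes the letters only.

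The 250 bases before the start are printed for 5 members, 5′ to 3′ on the strand of the gene, with matches in capitals (ATTGG is CCAAT read on the other strand). Cdc20 (chr4:118437344-118437593, minus strand), the activator of the anaphase-promoting complex, has a CHR match at position -18 from the start. Cdk1 (chr10:69352913-69353162, minus strand), the kinase that drives mitosis, and Mki67 (chr7:135716380-135716629, minus strand), the proliferation antigen Ki-67, hold CHR, CCAAT and E2F matches together. Mcm6 (chr1:128359706-128359955, minus strand), a subunit of the replicative helicase, holds E2F and CCAAT matches without CHR. Tyms (chr5:30073626-30073875, minus strand), thymidylate synthase, is shown because its levels departed from those of the other S-phase genes.
Cdc20: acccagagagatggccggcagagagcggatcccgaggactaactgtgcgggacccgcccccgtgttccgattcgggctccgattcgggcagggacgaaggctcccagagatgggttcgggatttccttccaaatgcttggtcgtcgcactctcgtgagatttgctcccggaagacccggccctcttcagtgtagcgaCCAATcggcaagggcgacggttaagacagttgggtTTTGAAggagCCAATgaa
Cdk1: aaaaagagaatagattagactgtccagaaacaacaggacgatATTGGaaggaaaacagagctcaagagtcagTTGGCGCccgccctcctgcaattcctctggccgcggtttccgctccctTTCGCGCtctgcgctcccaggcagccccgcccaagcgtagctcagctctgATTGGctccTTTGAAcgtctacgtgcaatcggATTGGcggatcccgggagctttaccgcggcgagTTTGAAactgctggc
Mki67: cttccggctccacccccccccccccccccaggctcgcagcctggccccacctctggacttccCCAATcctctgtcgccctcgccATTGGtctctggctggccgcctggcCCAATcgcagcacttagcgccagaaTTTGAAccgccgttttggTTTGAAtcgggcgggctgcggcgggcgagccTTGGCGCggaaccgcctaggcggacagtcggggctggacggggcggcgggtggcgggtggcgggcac
Mcm6: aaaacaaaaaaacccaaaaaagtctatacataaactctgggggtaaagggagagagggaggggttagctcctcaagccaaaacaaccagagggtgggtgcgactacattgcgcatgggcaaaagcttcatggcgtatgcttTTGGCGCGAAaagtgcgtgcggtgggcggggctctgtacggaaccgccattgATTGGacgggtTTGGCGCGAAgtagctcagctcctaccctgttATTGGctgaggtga
Tyms: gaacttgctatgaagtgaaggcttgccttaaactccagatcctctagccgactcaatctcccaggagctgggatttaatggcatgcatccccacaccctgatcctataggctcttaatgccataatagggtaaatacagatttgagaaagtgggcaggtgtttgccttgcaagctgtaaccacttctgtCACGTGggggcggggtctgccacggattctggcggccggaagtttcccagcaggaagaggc

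The S-phase and mitotic genes were high on the ZT4 and ZT12 arrays and low on ZT16 and ZT20. The median deviation of the 11 S-phase genes from each gene's own mean was, in log2 units, -0.03 (ZT0), 1.05 (ZT4), -0.19 (ZT8), 1.28 (ZT12), -0.92 (ZT16) and -1.07 (ZT20). For the 17 mitotic genes it was 0.01, 1.22, -0.16, 1.43, -1.30 and -1.39 on the same arrays. The medians of all genes tested stayed between -0.03 and 0.06. In order of time, the medians thus rose and fell more than once across the pools, with the lower ZT8 array between the high ZT4 and ZT12 arrays. With 1 pool per time point, a change with time cannot be told from a difference between pools. The signs on ZT4, ZT12, ZT16 and ZT20 were the same under each scaling tried, while the small medians on ZT0 changed sign with the scaling. In RNA from whole islets, fewer cells of a type and less RNA per cell cannot be told apart.

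**Figure D1:**
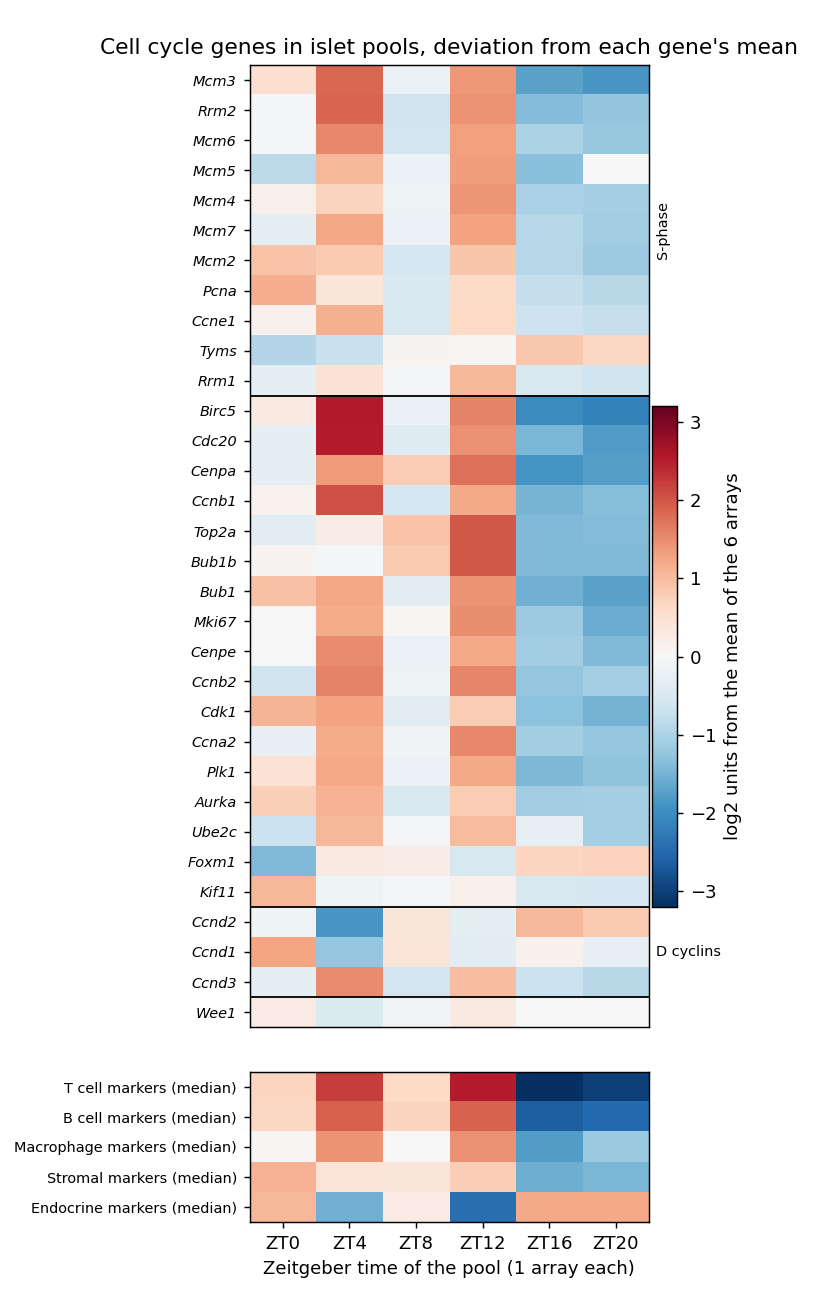
Deviation of each of the 32 measured members from its own mean over the 6 arrays, in log2 units, by zeitgeber time and grouped by role, with the medians of 5 cell type marker lists underneath; each cell is 1 array. Most S-phase and mitotic genes are high on ZT4 and ZT12 and low on ZT16 and ZT20, with Tyms, Foxm1, Ccnd1 and Ccnd2 standing apart.

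Most single members had the shape of the medians. The highest level lay on ZT4 for 14 of 32 members and on ZT12 for 11, against 24.2% and 16.3% of all genes tested. It lay on ZT0 for 4 members (21.5% of all genes), on ZT16 for 2 (17.2%), on ZT20 for 1 (14.9%) and on ZT8 for 0 (5.89%). The lowest level lay on ZT20 for 19 members and on ZT16 for 8, against 12.4% and 10.9% of all genes. It lay on ZT4 for 3 members (17.4%), on ZT0 for 2 (26.1%), on ZT8 for 0 (9.51%) and on ZT12 for 0 (23.6%). Both held together (highest on ZT4 or ZT12, lowest on ZT16 or ZT20) in 24 of 32 members, made up of 8 of 11 S-phase genes, 15 of 17 mitotic genes and the D cyclin Ccnd3. Of all genes, 17.2% had that pattern, which was chosen after the values were seen.

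The change from ZT8 to ZT12 to ZT16 was measured within 1 scan. From ZT8 to ZT12, 25 of 32 members were at least 2-fold higher and 0 at least 2-fold lower, where 13.4% of all genes were higher and 18.4% lower. Those 25 were 10 of 11 S-phase genes, 14 of 17 mitotic genes and Ccnd3. From ZT12, at lights off, to ZT16, 26 members were at least 2-fold lower and 2 higher, against 20.8% and 23.4% of all genes. The 26 were 10 S-phase genes, 15 mitotic genes and Ccnd3, and the exceptions were Foxm1 and Ccnd2. From ZT16 to ZT20 the levels were nearly flat, with 1 member (Mcm5) at least 2-fold higher and 0 lower, against 5.24% and 2.53% of all genes. Without replicates these folds carry no test.

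The other steps crossed scans. From ZT0 to ZT4, 16 members were at least 2-fold higher and 3 lower, against 28.1% and 21.8% of all genes. From ZT4 to ZT8, 2 were higher and 20 lower, against 16% and 21.4%. From ZT20 to ZT0, 20 were higher and 2 lower, against 20.4% and 23.1%. Scan and time cannot be told apart for ZT0 and ZT4, each alone in its scan.

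**Figure D2:**
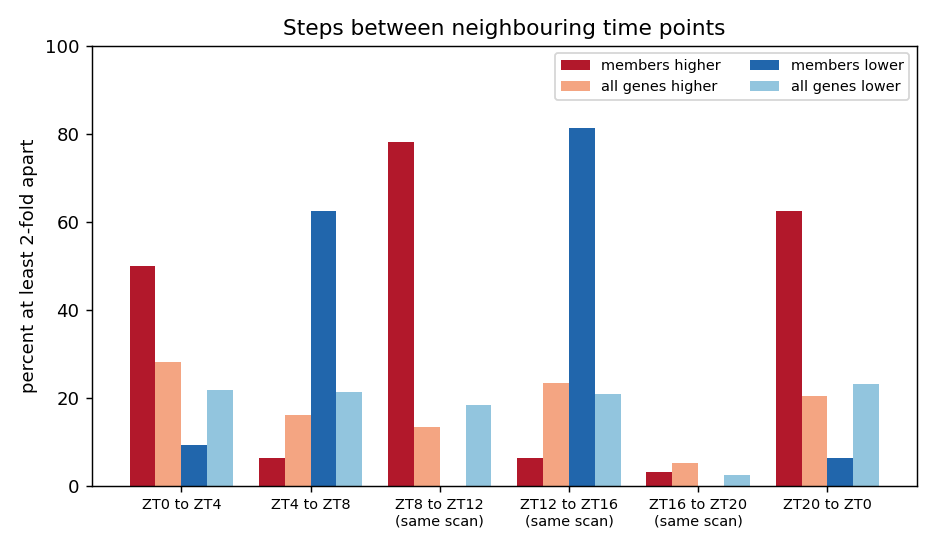
Percent of the 32 measured members at least 2-fold higher (red) or lower (blue) between neighbouring time points, each beside the percent of all genes tested (paler bars). The 25 members higher on ZT12 than on ZT8 and the 26 lower on ZT16 than on ZT12 come from arrays of 1 scan.

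Among the S-phase genes, those of the MCM helicase, which unwinds DNA at the fork, were highest on ZT4 or ZT12, except Mcm2, which was highest on ZT0. Mcm3 had levels of 1.95 (ZT0), 3.25 (ZT4), 1.22 (ZT8), 2.79 (ZT12), -0.31 (ZT16) and -0.45 (ZT20). It was thus high on ZT4 and ZT12 and low on ZT16 and ZT20, a difference of 13.0-fold between ZT4 and ZT20. Mcm6, in the same ring of 6 subunits, had 3.18, 4.75, 2.62, 4.53, 2.21 and 2.0, a difference of 6.76-fold between the same arrays. Mcm5 had -0.11, 1.78, 0.54, 2.05, -0.62 and 0.71, and was the only member at least 2-fold higher on ZT20 than on ZT16. Its highest array was ZT12 and its lowest ZT16, 6.36-fold apart. Mcm2, Mcm4 and Mcm7 ranged over 4.26-fold, 5.57-fold and 5.28-fold, each lowest on ZT20.

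Rrm2, the regulated subunit of ribonucleotide reductase, which makes the deoxynucleotides for replication, had levels of 0.80, 2.70, 0.22, 2.29, -0.55 and -0.42 from ZT0 to ZT20. It was 9.52-fold higher on ZT4 than on ZT16. Rrm1, the large subunit, moved less, with 0.18, 0.95, 0.43, 1.57, -0.01 and -0.14, a difference of 3.28-fold between ZT12 and ZT20. Both subunits shared the low ZT16 and ZT20 levels. Pcna, the sliding clamp of DNA polymerase, was highest on ZT0 instead, with 4.33, 3.57, 2.68, 3.79, 2.42 and 2.28, so that ZT0 was 4.13-fold above ZT20. Ccne1, the cyclin that starts S phase with CDK2, ranged over 3.67-fold and was highest on ZT4 and lowest on ZT20.

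Tyms, which makes thymidylate for DNA synthesis, did not have the shape of the rest of its group. Its levels were 0.02 (ZT0), 0.26 (ZT4), 1.05 (ZT8), 1.01 (ZT12), 1.82 (ZT16) and 1.64 (ZT20). It was 3.48-fold higher on ZT16, where Mcm3 and Rrm2 were low, than on ZT0, and on ZT12, where those genes were high, it was near its own mean (deviation 0.04). It was the only S-phase gene with its highest level on ZT16.

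The widest ranges of the set were those of the mitotic genes Birc5 and Cdc20, followed by that of the S-phase gene Mcm3 (13.0-fold). Birc5, which encodes survivin of the chromosomal passenger complex, had levels of 0.82 (ZT0), 3.07 (ZT4), 0.32 (ZT8), 2.10 (ZT12), -1.52 (ZT16) and -1.62 (ZT20). Its level on ZT4 was 25.9-fold that on ZT20, the widest range among the members, for the probe used. The other probes of Birc5, described below, were highest on ZT12. Cdc20, whose promoter is printed above, had 0.43, 3.21, 0.29, 2.16, -0.75 and -1.12, and ZT4 was 20.1-fold above ZT20. Both genes were higher on ZT4 and ZT12 than on ZT0 and ZT8, and lowest on ZT16 and ZT20.

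Cenpa, the histone H3 variant that marks centromeres, had -2.36, -0.68, -1.23, -0.28, -3.95 and -3.82. Its highest array was ZT12, 12.7-fold above ZT16, and it was lower on ZT0 than on ZT8. Ccnb1, cyclin B1, the partner of CDK1, had -0.44, 1.49, -1.11, 0.66, -2.05 and -1.92, with ZT4 11.6-fold above ZT16. Mki67 had 1.06, 2.25, 1.09, 2.54, -0.10 and -0.54, with ZT12 8.42-fold above ZT20, and its second probe had the same highest and lowest arrays. The 10 remaining mitotic genes, Foxm1 and Kif11 aside, ranged over 4.41-fold to 10.6-fold. They were Top2a, a topoisomerase, Cdk1, Ccnb2 and Ccna2, which are cyclins B2 and A2, and the kinases Aurka and Plk1. The others were the checkpoint genes Bub1 and Bub1b, the kinesin Cenpe and the ubiquitin-conjugating enzyme Ube2c. Each of these 10 was highest on ZT4 or ZT12 and lowest on ZT16 or ZT20. Top2a and Bub1b had no dip on ZT8, however. Top2a rose from -2.49 (ZT4) through -1.82 (ZT8) to -0.74 (ZT12). Bub1b rose from -3.08 through -2.20 to -1.05 on the same arrays, and its ZT4 level was below that on ZT0 (-2.94).

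A pair of mitotic genes, Foxm1 and Kif11, did not share that pattern of highest and lowest arrays. Foxm1, the transcription factor that activates G2 and M genes, had levels of -1.97 (ZT0), -0.29 (ZT4), -0.34 (ZT8), -1.09 (ZT12), 0.12 (ZT16) and 0.17 (ZT20). It was highest on ZT16 and ZT20, where most other mitotic genes were lowest, and ZT20 was 4.39-fold above ZT0. Kif11, the kinesin that pushes spindle poles apart, had -2.59, -3.80, -3.69, -3.48, -4.15 and -4.18. It was highest on ZT0, 3.01-fold above ZT20, and changed little between ZT4 and ZT12.

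The 3 D cyclins, which couple growth signals to the cycle, did not move together. Ccnd1 had levels of 3.67 (ZT0), 1.17 (ZT4), 2.80 (ZT8), 2.07 (ZT12), 2.55 (ZT16) and 2.14 (ZT20), and ZT0 was 5.67-fold above ZT4. Ccnd2, known as the main D cyclin of adult mouse beta cells, had 1.82, 0.09, 2.34, 1.66, 2.99 and 2.79. It was lowest on ZT4, where the mitotic genes were high, and highest on ZT16, where they were low, a range of 7.49-fold. Ccnd3, known for its part in the expansion of developing lymphocytes, had 2.65, 4.45, 2.32, 3.92, 2.25 and 2.05, with ZT4 5.27-fold above ZT20. Ccnd3 therefore had the shape of the S-phase and mitotic genes, and Ccnd1 and Ccnd2 did not.

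Wee1 had the narrowest range of the 32 members. Its levels were -0.14, -0.87, -0.49, -0.11, -0.38 and -0.38, with ZT12 1.69-fold above ZT4. Of the clock genes set beside it, Dbp had 3.82, 4.05, 3.83, 3.55, 1.99 and 1.16, and Arntl, which encodes BMAL1, had -0.59, -1.22, -0.82, 0.34, 0.37 and 1.37. Dbp was lowest on ZT16 and ZT20 and Arntl was highest on ZT20, with ranges of 7.42-fold and 6.02-fold, both wider than that of Wee1.

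**Figure D3:**
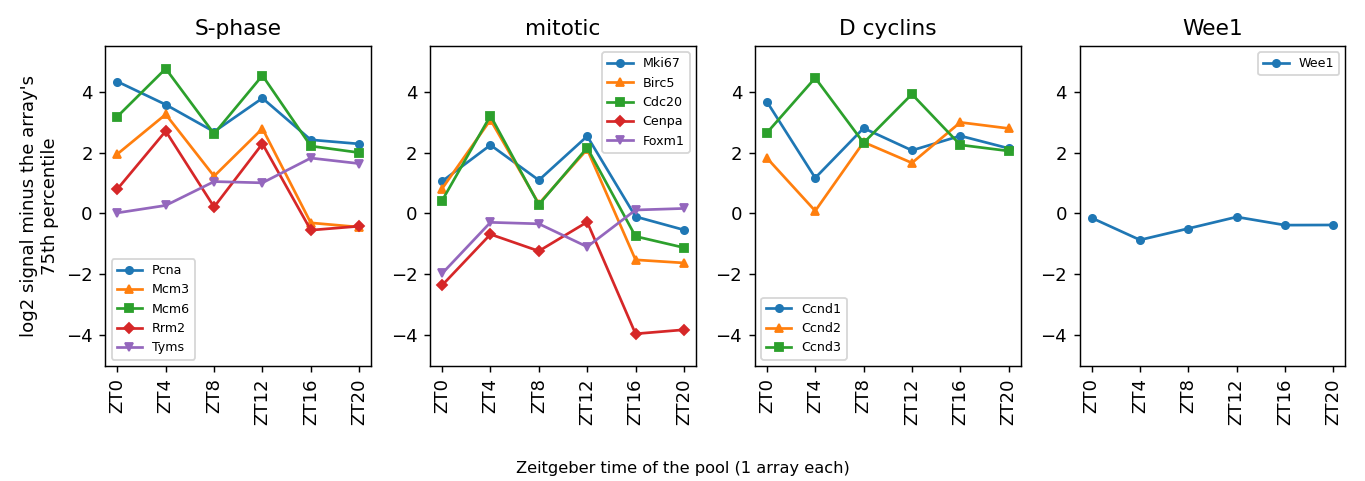
Levels of 14 of the members whose values are given in the text, in 1 panel per role, in log2 units relative to the 75th percentile of the array, against zeitgeber time; each point is 1 array and lines join the points of a gene. Mcm3, Birc5 and Cdc20 are high on ZT4 and ZT12, Tyms and Foxm1 are high on ZT16 and ZT20, and Wee1 is nearly level.

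Lymphoid genes had the same sequence of high and low arrays. The lymphocyte score was the mean deviation of 24 measured T and B cell markers (14 of 14 T cell and 10 of 11 B cell) from their own means. The score was 0.45 (ZT0), 1.77 (ZT4), 0.66 (ZT8), 1.87 (ZT12), -2.46 (ZT16) and -2.28 (ZT20). Unlike the S-phase and mitotic medians, the score was higher on ZT8 than on ZT0 and was lowest on ZT16. Cd3g, a chain of the T cell receptor complex, had levels of 1.28, 5.07, 2.37, 4.53, -2.31 and -2.12. It was thus more than 1 log2 unit higher on ZT0 and ZT8 than on ZT16 and ZT20, and higher still on ZT4 and ZT12. The summed markers did not all do so: Cd4 and Pax5 were highest on ZT16, Cd247 was highest on ZT0 and Cd3e was lowest on ZT0. On ZT16 and ZT20, 12 of 14 T cell and 9 of 10 B cell markers were still well above background.

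**Figure D4:**
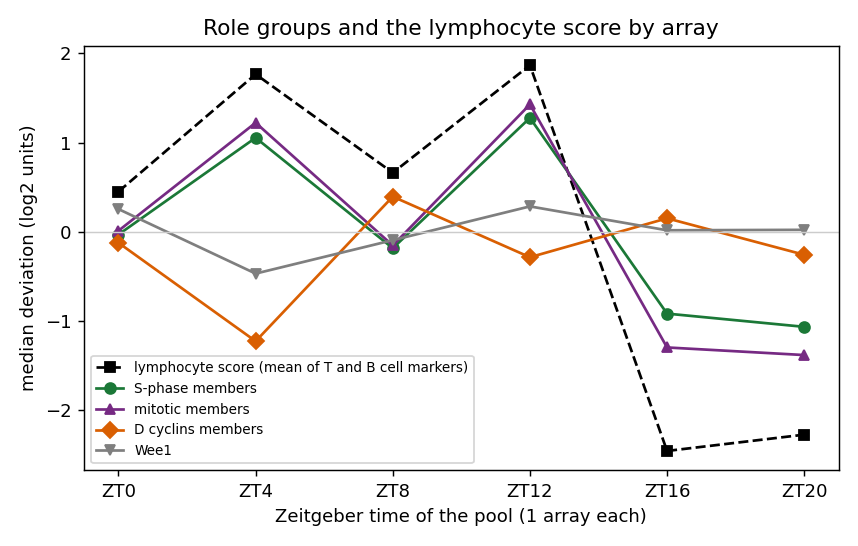
Median deviation in log2 units of the S-phase, mitotic and D cyclin members and of Wee1 on each array, with the lymphocyte score drawn on the same axis. The S-phase and mitotic medians and the score are all above 1 on ZT4 and ZT12 and below -0.9 on ZT16 and ZT20, and the D cyclin median is lowest on ZT4.

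The slope of each gene on this score was tested with limma (moderated t, Benjamini-Hochberg over all 24103 genes outside the score). It gives the log2 change of a gene per log2 unit of the score. Of 32 members, 13 had a positive slope that passed at an adjusted p under 0.05 and 0 a negative one, against 6.42% and 2.2% of all genes (8.62% in either direction). Slopes were above 0 for 27 of 32 members and for 45.9% of all genes. The score and the members were read from the same arrays, so a slope says only that they moved together. Whether the lymphocyte content of the islet preparations set the members' levels was not tested.

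Mitotic genes passed in 10 of 17 cases, with a median slope of 0.59, and S-phase genes in 3 of 11, with a median of 0.44. The median over all genes was -0.03. The mitotic genes that passed were Cenpa, with the smallest adjusted p of the members (slope 0.80 ± 0.12 SE, limma adjusted p = 0.00747), Birc5 (0.94 ± 0.15, limma adjusted p = 0.0082), Cdc20, Bub1, Ccnb1, Mki67, Plk1, Cenpe, Cdk1 and Ccna2. The S-phase genes that passed were Mcm3 (0.78 ± 0.13, limma adjusted p = 0.0102), Rrm2 and Mcm4. A slope under 1 means that the fitted change was less than 1 log2 unit per log2 unit of the score. The full range of a gene over the arrays can still be wider than that of the score. The difference between the groups, mitotic median minus S-phase median, was 0.17 on ZT4, 0.15 on ZT12, -0.38 on ZT16 and -0.32 on ZT20, and was not tested.

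D cyclins passed in 0 of 3 cases, against 8.62% of all genes, and 3 genes are too few to differ from that share. Their median slope was -0.09. Ccnd3 had a slope of 0.41 ± 0.15 SE (limma adjusted p = 0.128), Ccnd1 one of -0.09 ± 0.18 (limma adjusted p = 0.79) and Ccnd2 one of -0.44 ± 0.15 (limma adjusted p = 0.119). Wee1 had a slope of -0.02 ± 0.12 (limma adjusted p = 0.943). Among the genes that went their own way, Tyms had -0.28 ± 0.14 (limma adjusted p = 0.237), Foxm1 -0.23 ± 0.16 (limma adjusted p = 0.408) and Kif11 0.16 ± 0.14 (limma adjusted p = 0.511). Pcna, with 0.32 ± 0.15, did not pass either (limma adjusted p = 0.21).

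The calls changed with the arrays in the fit. Without ZT16 or without ZT20, 0 of 32 members passed, against 2.17% and 2.11% of all genes, while the median slope of the members was 0.59 and 0.54 (0.52 with all arrays). Without ZT12, 3 members passed (2.77% of all genes), and without ZT4, 5 (4.85%). Without ZT0, 19 passed (16.8%). With ZT16 and ZT20 both left out, 0 passed (24 genes in all) and the median slope was 0.83 for S-phase, 1.04 for mitotic and -0.86 for D cyclin genes. In the 4 arrays of 1 scan, 13 members passed, 10 of them among the 13 above, with 11.4% of all genes passing. Slopes from B cell markers alone gave 7 members (6.67% of all genes), and from T cell markers alone 17 (9.88%).

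**Figure D5:**
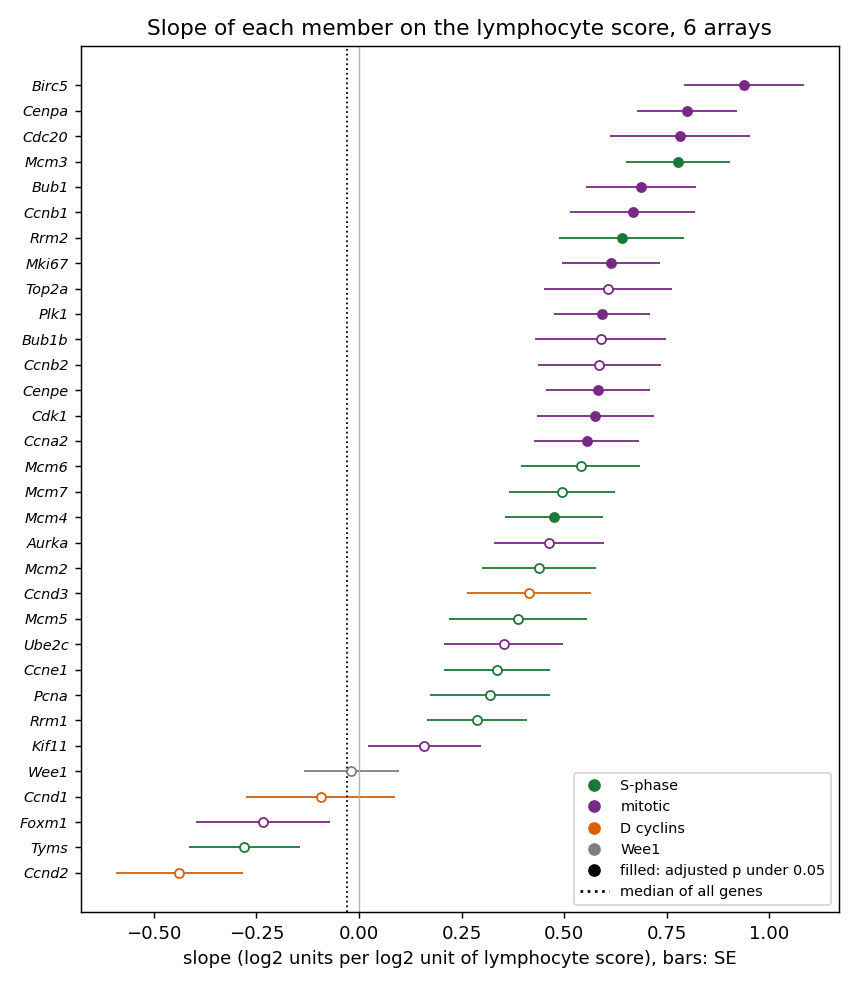
Slope of each measured member on the lymphocyte score with its standard error from limma, by role; filled points passed at an adjusted p under 0.05 over all genes, and the dotted line is the median slope of all genes. The 13 that passed are mitotic and S-phase genes with slopes above 0, and Ccnd2, Tyms and Foxm1 have the lowest slopes.

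Macrophage, plasma cell and stromal markers had low medians on ZT16 and ZT20 as well. The median deviation of 7 macrophage markers was 0.05, 1.45, 0.00, 1.45, -1.79 and -1.18 from ZT0 to ZT20, and that of 5 plasma cell and germinal centre markers 0.78, 1.45, 0.05, 1.47, -1.89 and -1.55. Jchain, the joining chain of secreted antibodies, was 29-fold higher on ZT4 than on ZT20. Not every macrophage marker had the shape of its median: Lyz2 was below its own mean on ZT4 (-2.14), C1qa was highest on ZT8 and C1qb was lowest on ZT0. Stromal markers (7 of 7 measured) had 1.1, 0.45, 0.39, 0.78, -1.56 and -1.46. Their median was thus highest on ZT0, unlike those of the S-phase and mitotic genes. The 11 measured endocrine markers had 1.05, -1.54, 0.26, -2.41, 1.20 and 1.20, and so were lowest where the S-phase and mitotic genes were highest. Not every endocrine gene did so: Ins1 and Ins2 were highest on ZT4, and Iapp was above its own mean there. Endothelial (0.17, -0.68, 0.47, 0.36, -0.15 and -0.27) and acinar markers (0.76, 0.49, -0.47, -1.27, 0.04 and 0.24) had other shapes. Intestinal epithelium markers, 5 of 8 measured, stood at 5.07 on ZT4 and between -1.56 and 0.06 on the other arrays. The part of these cell types in the members' levels was not tested.

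A cosine of 24 h was then fitted to ask whether the members had 1 peak per day. With limma's moderated F test 0 of 32 members passed, as did 0% of the 24127 genes (smallest limma adjusted p = 0.754). At an unadjusted p under 0.05 there was 1 member, Cenpa (fitted peak minus trough 3.57 ± 0.99 log2 units at ZT7.26, unadjusted limma p of 0.0257), and 4% of all genes, or 965; the F test without moderation gave 681 genes and 0 members. The fitted peak fell between ZT2 and ZT10 for 27 of 32 members, made up of 10 of 11 S-phase genes, 16 of 17 mitotic genes and 1 D cyclin, against 33.8% of all genes. The high ZT4 and ZT12 arrays lie on either side of that time, and the lower ZT8 array between them. The median fitted range of the members was 1.98 log2 units against 1.33 for all genes. With the lymphocyte score in the fit it was 1.03 against 1.19, and with the scan in the fit 2.52 against 1.29. Without ZT8, 18 members had an unadjusted limma p under 0.05 (4026 genes in all) and without ZT12, 9 (2452 genes). Without ZT4, ZT16 or ZT20 there were 0 members, against 3.54%, 1.73% and 1.44% of all genes.

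Wider lists of the pathway were counted in the same way. Of 32 replication licensing and fork genes, 6 passed the slope test, all with positive slopes (median 0.33), and 29 slopes were above 0. Over all genes 6.42% passed with positive slopes, 45.9% of slopes were above 0 and the median was -0.03. Uhrf1, which keeps DNA methylation through replication, had levels of 0.35, 2.24, 0.05, 1.77, -2.16 and -2.06 and a slope of 0.94 ± 0.12 SE (limma adjusted p = 0.00425). Tk1, thymidine kinase, had 0.20, 2.80, 0.40, 1.93, -1.92 and -1.22 and was 26.4-fold higher on ZT4 than on ZT16. Its slope was 0.89 ± 0.15 (limma adjusted p = 0.0105). Tyms, in the route that makes thymidylate anew, was highest on ZT16, where Tk1, in the salvage route, was lowest. Orc6, of the origin recognition complex, had the smallest range in this list, 1.32-fold.

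Of 29 measured spindle, kinetochore and cytokinesis genes (34 listed), 10 passed with positive slopes, against 6.42% of all genes. All 29 slopes were above 0, against 45.9% of all genes, with a median of 0.51. Cdca3, a trigger of mitotic entry, ranged over 14.2-fold and had a slope of 0.78 ± 0.14 SE (limma adjusted p = 0.0146). Kif23, a kinesin of the midbody, ranged over 12.1-fold with a slope of 0.74 ± 0.12 (limma adjusted p = 0.0113). Pbk, a mitotic kinase, had the smallest range, 1.67-fold.

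Among 7 CDK inhibitors 0 passed, against 8.62% of all genes, so a list of this size cannot be told from that share. Their median slope was 0.19. Cdkn2a, which encodes p16 and ARF, had levels of -3.26, 0.99, -3.68, -0.38, -3.51 and -3.74. It stood higher on ZT4 and ZT12 than on the other arrays, and ZT4 was 26.5-fold above ZT20, with a slope of 0.77 ± 0.28 SE (limma adjusted p = 0.122). Cdkn2d ranged over 7.48-fold, highest on ZT4 (slope 0.52 ± 0.14, limma adjusted p = 0.0599), and Cdkn2b over 2.53-fold. Inhibitors and cycle genes were thus high on the same arrays in the case of Cdkn2a and Cdkn2d.

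Of 18 measured retinoblastoma, E2F and DREAM factors, 1 passed, a share near the 8.62% of all genes. It was the repressor E2f8 (slope 0.55 ± 0.13 SE, limma adjusted p = 0.0417). E2f7, its paralogue, had levels of -2.22, -0.62, 0.23, -2.18, 2.41 and 1.02, highest on ZT16 and 24.6-fold lower on ZT0, with a slope of -0.77 ± 0.22 (limma adjusted p = 0.0691). Mybl2, which activates mitotic genes, was 6.57-fold higher on ZT4 than on ZT0, and Rb1 ranged over 1.99-fold. Cdk4, the partner of the D cyclins, was highest on ZT16 and ranged over 3.12-fold. Beside the 8.62% of all genes, 0 of 2 measured D cyclin partners passed. Of the 4 clock genes 1 passed, Dbp (slope 0.57 ± 0.14, limma adjusted p = 0.0443). Both lists are too short to be set against that share.

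Other probes of the same genes gave a check on shape. Of the 34 members, 8 had more than 1 probe, and the brightest probe on average stood for the gene. For Mki67 the probes had the same highest and lowest array. The other Birc5 probes were highest on ZT12 in place of ZT4. The 1 of them above background on all arrays had levels of -3.85 (ZT0), -3.88 (ZT4), -3.11 (ZT8) and -2.62 (ZT12), so it was not high on ZT4. It ranged over 5.56-fold, against 25.9-fold for the probe used. The high ZT4 level of Birc5 therefore depends on the probe. The second probes of Ube2c and Ccnd3 were highest on ZT12 and lowest on ZT20. A second Ccne1 probe was highest on ZT20, so the shape of that gene depends on the probe. A second Ccnb1 probe was highest on ZT12, lowest on ZT4 and ranged over 3.33-fold, against 11.6-fold for the probe used, and the last was highest on ZT16, where its spots were outliers. By RefSeq annotation, 11 of the 34 members overlap another gene, among them Ccnd3 with Bysl, Cdc20 with Elovl1 and Mcm7 with Ap4m1.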

How the data were processed

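The deposited scanner files came from Agilent Feature Extraction (version 11.0.1.1, per the file headers), and the processed signal in them is a background-subtracted linear intensity, 1 Cy3 array per pool. The authors' deposited value table holds log2 values of 30170 probes. Its column medians lie close together, from 8.62 to 8.63, and its normalization is not given in the sources used here.

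Control spots were removed and spots of a probe averaged, outlier-flagged spots left out, giving 39429 probes. Values were log2 of processed signal minus each array's 75th percentile over all probes. Probes took symbols through RefSeq accessions (27234, 69.1%), with GRCm38.p6 tables used for names and promoters. Tested probes were well above background on at least 3 arrays and had no array on which all spots were outliers (1414 removed), leaving 28795; the brightest probe stood for a gene. A fold was taken against the lowest signal well above background where a spot was dimmer. Fits used limma 3.58.1 in R 4.3.3 (cosine of 24 h, 3 residual degrees of freedom; slope on the score, 4), with Benjamini-Hochberg adjustment and a threshold of 0.05. Both fits were tested on simulated data. Tables were made with pandas 2.3.3 in Python 3.11.15.

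The members, gene lists, markers, pathways and motifs were chosen with earlier results of these data known. Values on every array are given for the D cyclins, Wee1, Mki67, Pcna and, of the S-phase and the mitotic genes, the 4 with the largest range and the 2 with the smallest; in other lists the 2 largest ranges and the smallest among genes above background on all 6 arrays are named. Where another gene is named, it was chosen after its values were seen. Alternatives changed the scaling, background correction, filter, probe rule, outlier spots, arrays, score and fold.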

Additional observations from a re-analysis of the deposited data

How the results depend on the processing

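No paired analysis was possible because each time point had only 1 array. The 480 cosine amplitudes of single genes all counted as unchanged. That was fixed in advance, because an amplitude has no sign and 0 genes passed the cosine test in any setting. Among the slopes of single genes, 415 kept their direction and side of the threshold, 30 newly passed and 93 no longer passed. A further 6 slopes changed sign, none of which passed in either setting. These were, without ZT16 and ZT20, Tyms (0.17), Kif11 (-0.45) and Foxm1 (0.44); without ZT4, Ccnd1 (0.060) and Wee1 (0.045); and in the arrays of 1 scan Wee1 (0.036). Without 1 array, Wee1 ran from -0.068 to 0.045 and Ccnd1 from -0.20 to 0.060. Removing 1 array at a time gave 0 to 19 members and 508 to 4053 genes passing the slope test. In the cosine fit it gave 0 to 18 members and 348 to 4026 genes at an unadjusted limma p under 0.05. Median slopes then ran from 0.39 to 0.48 (S-phase), 0.54 to 0.63 (mitotic) and -0.20 to 0.06 (D cyclins). Without ZT16 and ZT20 together, 0 members and 24 genes passed, with median slopes of 0.83, 1.04 and -0.86. No filter on dim probes left 6 members (of 34) and 1341 genes passing, and B cell markers alone 7 members; quantile normalization and the authors' table each gave 9. Mcm3, Birc5 and Cenpa each passed in 14 of 17 alternatives. In the cosine fit, quantile normalization gave 2 members at an unadjusted limma p under 0.05 (4.61% of all genes). The authors' table gave 2 (4.69%), normexp 3 (3.93%) and probes above background on all arrays 2 (4.05%). With the scan (1.82%), with the lymphocyte score (3.27%) or without moderation (2.82%) there were 0. At 1.5-fold in place of 2-fold, 5 members were lower on ZT4 than on ZT0, 5 higher on ZT8 than on ZT4, 3 lower on ZT12 than on ZT8, 1 lower on ZT20 than on ZT16 and 4 lower on ZT0 than on ZT20. Quantile normalization and the authors' table each gave 2 members lower on ZT12 than on ZT8 and 3 lowest on ZT16, and no filter gave 4 lowest on ZT0. The cause of these changes was not tested. Shares of all genes are not given beside these counts at 1.5-fold and under other settings. The counts therefore show only how the number of members depends on the processing. Normexp moved the median deviation of all genes to 0.40 on ZT4 and -0.21 on ZT0. Signal on ZT4, the dimmest array, limits what can be said of dim genes there.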
